A study of Drosophila melanogaster with 20 samples.

Results

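The 2 profiles compared here are H3K27me3 and H3K27me2 in salivary glands of wild type (y,w) Drosophila larvae. The members are the windows of 50 kb, placed every 5 kb, that carry a value in both profiles. These were 27585 windows of the 27657 that occur in at least 1 of the 4 salivary gland profiles of the series. Of them, 23930 lie on chromosome 4 or on one of the arms X, 2L, 2R, 3L and 3R, and 3655 lie on the heterochromatic and unplaced scaffolds of the dm3 assembly (2LHet, 2RHet, 3LHet, 3RHet, XHet, YHet and U). A further 46 windows had a value only for H3K27me3 and 26 only for H3K27me2, and 64 of these 72 lie on scaffolds.

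The series follows the effect of the SuUR mutation on H3K27 methylation and holds 20 libraries, of which 4 gave the wild type gland profiles. According to the labels, fixed chromatin of 20 pairs of glands, dissected from 3rd instar larvae kept at 23 °C, was immunoprecipitated with antibodies to H3K27me3 (Cell Signaling Technology #9733) or to H3K27me2 (Millipore). Each mark has its own input library, and each profile is log2 of ChIP over input. The second genotype is the SuUR mutant, whose glands were profiled in the same way with the same antibodies and are used at the end as profiles that the wild type comparison did not use. Both genotypes were raised and dissected alike, and the glands are a single polytene tissue.

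Methylation of lysine 27 of histone H3 is laid down by Polycomb Repressive Complex 2, whose catalytic subunit in Drosophila is E(z). The trimethylated form marks domains of Polycomb repression and is bound by the chromodomain of Polycomb, a subunit of Polycomb Repressive Complex 1. The dimethylated form is known as a widespread mark of silent chromatin outside these domains. In larval salivary glands the chromosomes are polytene, and many late replicating regions contain fewer DNA strands than their surroundings, which requires the SUUR protein.

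The antibodies differ and each mark was normalized on its own, so a log2 value of one mark cannot be set against a log2 value of the other. Each window was therefore given a percentile rank within its own profile, with 100 for the highest value. A window was called high above rank 80 and low below rank 20. On the log2 scale rank 80 corresponded to 0.175 for H3K27me3 and 0.225 for H3K27me2. The H3K27me3 profile had the longer upper tail, with 1.53 at its 99th percentile against 0.95 in the H3K27me2 profile, and the SD over windows was 0.42 for H3K27me3 and 0.31 for H3K27me2. The methods of the study give another number of gland pairs and mention biological replicates, but the deposited profiles do not separate any. There is 1 profile per mark, so no replicate error can be calculated, no p-value is given, and the counts and medians below describe these libraries. Neighbouring windows share most of their length and are not independent measurements. Of 2772 windows picked so that none overlap, 220 (7.94%) were high in both marks and 1871 (67.5%) in neither, near the shares in all windows given next.

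High H3K27me3 and high H3K27me2 coincided in 2152 windows, or 7.80%. A further 3312 windows (12.01%) were high in H3K27me3 only, 3438 (12.5%) were high in H3K27me2 only, and 18683 (67.7%) were high in neither. Of the windows high in H3K27me3, 39.4% were also high in H3K27me2, where 20.3% of all windows are high in H3K27me2. Read the other way, 38.5% of the windows high in H3K27me2 were high in H3K27me3, against 19.8% of all windows. The low ends coincided somewhat more: 2406 windows (8.72%) were low in both marks, and they made up 44.5% of the windows low in H3K27me3, where 20.2% of all windows are low in H3K27me2. They also made up 43.2% of the windows low in H3K27me2, with 19.6% of all windows low in H3K27me3. Opposite extremes were few. H3K27me3 was high and H3K27me2 low in 556 windows (2.02%), and H3K27me2 was high and H3K27me3 low in 359 windows (1.30%). By the difference of the ranks, H3K27me3 lay over 50 points above H3K27me2 in 1697 windows (6.15%) and over 50 points below it in 1426 (5.17%).

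The coincidence of high values was not spread evenly over the genome. Scaffolds hold 13.2% of the windows but 1120 of the 2152 windows high in both marks. On the arms and chromosome 4, 1032 windows (4.31%) were high in both, which is 29.6% of the windows high in H3K27me3, where 15.1% of these arm windows are high in H3K27me2. On the scaffolds 30.6% of windows were high in both, but high values of each mark were frequent there: 56.5% of the H3K27me3-high scaffold windows were H3K27me2-high, close to the 54.4% of all scaffold windows. Thus within the scaffolds a high value of one mark was hardly more frequent where the other was high. Of the 2406 windows low in both marks, 2245 lay on the arms and chromosome 4 (46.1% of those low in H3K27me3, against 20.8% of arm windows low in H3K27me2).

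Across non-overlapping windows Spearman's rho between the marks was 0.43 for the whole assembly (n = 2772 windows) and 0.46 for the arms and chromosome 4 (n = 2397). Among the arms it was lowest on 2R (0.39) and highest on X (0.50), with 0.45 on 2L, 0.48 on 3R and 0.49 on 3L. On scaffolds it was 0.11 (n = 375). These values are descriptions. The windows of a mark share a ChIP and an input library, and the marks share the base composition and copy number of a window, which were not measured here. The correlation was also short in range. Between windows 50 kb apart on the arms, which share no sequence, rho was 0.33 for H3K27me3 with itself and 0.25 for H3K27me2 with itself, and it was 0.21 and 0.19 between the marks. At 200 kb all of these values were at most 0.070.

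**Figure D1:**
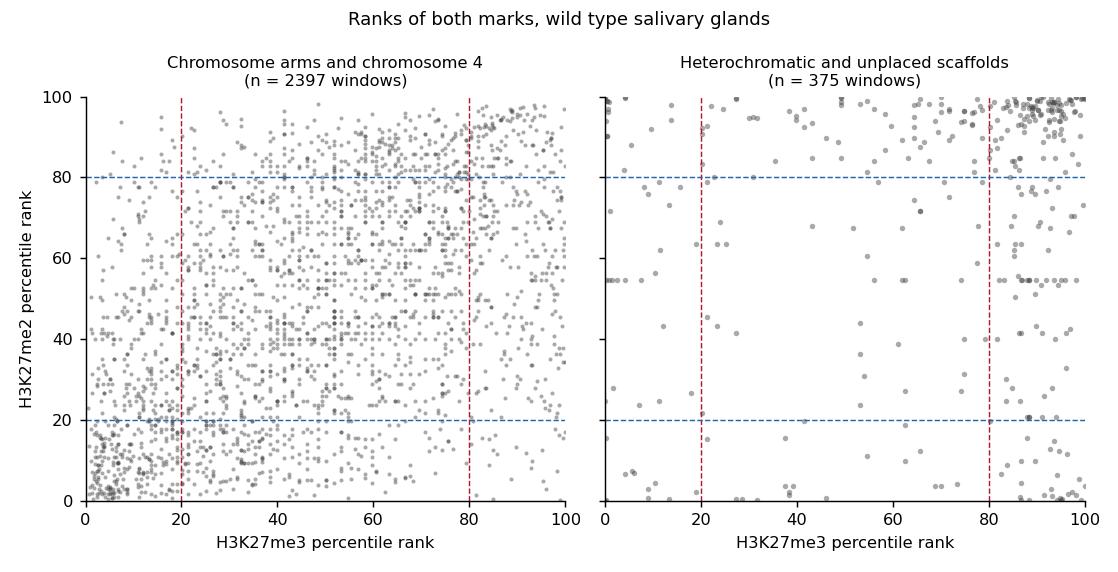
Percentile rank of each non-overlapping 50 kb window in the H3K27me3 profile (horizontal axis) and in the H3K27me2 profile (vertical axis) of wild type salivary glands, for arms and chromosome 4 (left, 2397 windows) and scaffolds (right, 375 windows). Dashed lines mark ranks 20 and 80. On the arms the points crowd at the lower left (rho 0.46), whereas on scaffolds they crowd along the top and the right with little relation between the marks (rho 0.11).

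The relation on the arms was not a straight line, because the windows with the strongest H3K27me3 signal were not those with the strongest H3K27me2 signal. The arm windows were divided into bins of 10 rank points of H3K27me3. In the lowest bin the median H3K27me2 rank was 17.8 (quartiles 7.00 and 35.0, 2332 windows). The median was 43.1 in windows with H3K27me3 ranks from 30 to 40, 54.7 from 50 to 60, 65.9 from 70 to 80, and reached 69.7 from 80 to 90 (quartiles 47.0 and 86.7, 1841 windows). In the highest bin it was lower again, at 57.2 (quartiles 37.8 and 77.8, 1642 windows). The share of windows high in H3K27me2 followed the same course, with 2.02% in the lowest bin, 36.0% from rank 80 to 90 and 22.5% above rank 90. In arm windows that overlap no SNR, a kind of H3K27me3-rich region described below, the median was not lower in the highest bin as a whole. It was 73.8 from rank 80 to 90 (1295 windows, 40.7% high in H3K27me2) and 77.8 above rank 90 (334 windows, 46.7%). Within that bin it was 79.0 from rank 90 to 95 (231 windows) and 68.2 from 95 to 99 (100 windows). Only 3 windows lay above rank 99, with a median of 26.6. The lower quartile was 51.2 from rank 80 to 90 and 35.3 above rank 90. At the far end, in the 205 arm windows above H3K27me3 rank 99, whose median log2 H3K27me3 was 1.895, the median H3K27me2 rank was 54.7 and 19.0% were high in H3K27me2. The spread within each bin is wide, and the quartile ranges of the highest bins overlap.

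**Figure D2:**
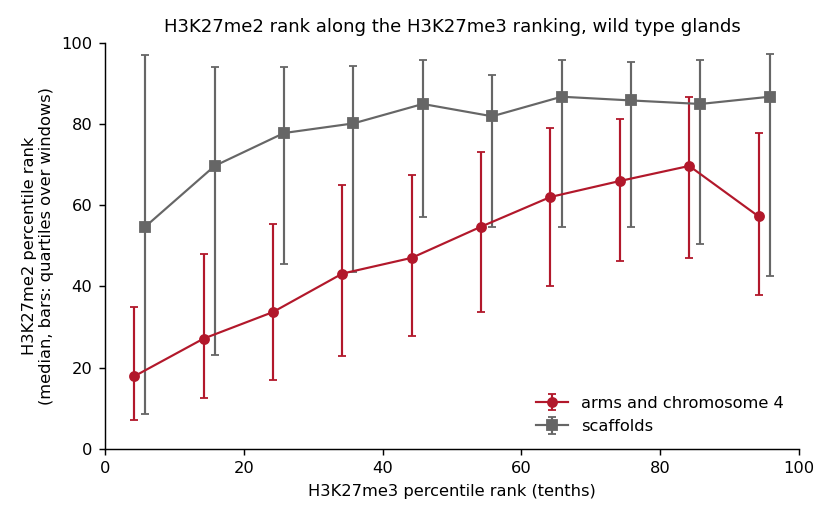
Median H3K27me2 percentile rank (vertical axis) in bins of 10 percentile points of H3K27me3 rank (horizontal axis) in wild type glands, for arms and chromosome 4 (circles) and scaffolds (squares), with bars from the lower to the upper quartile over windows. On arms the median was 17.8 in the lowest bin, 69.7 from rank 80 to 90 and 57.2 in the highest bin.

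The study defined SuUR-sensitive regions (SSRs), which lose H3K27me3 in SuUR mutants, and SuUR-non-sensitive regions (SNRs), which have high H3K27me3 in both genotypes and were described as Polycomb domains. Both lists were made on published ChIP-chip profiles of the same tissue obtained with other antibodies (from Abcam), for which cross-reaction with H3K27me2 had been reported. Of the arm windows above H3K27me3 rank 90, 62.2% had their centre in an SNR and 18.8% in an SSR, whereas from rank 80 to 90 these shares were 10.5% and 59.3%. Within a bin of H3K27me3 rank the kinds of region had different H3K27me2 medians, although the bins do not make their H3K27me3 ranks equal. Above rank 90 the median H3K27me2 rank was 58.0 in windows centred in SNRs (1021 windows) and 77.1 in windows centred in SSRs (308 windows). In windows centred in neither it was 46.3 (313 windows). The median H3K27me3 ranks in these windows were 97.1, 93.0 and 94.1. From rank 80 to 90 it was 65.9 in SNRs (193 windows), 77.8 in SSRs (1092 windows) and 55.5 in neither (556 windows), with median H3K27me3 ranks of 87.1, 84.4 and 84.1. In both bins SSR windows had the highest median H3K27me2 rank. Their quartiles above rank 90 ran from 34.7 to 93.7, so single windows in SSRs covered most of the range.

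For each region the ranks were averaged over the windows centred in it. SNRs had a median rank of 92.3 for H3K27me3 (SD over SNRs 17.0) and 53.9 for H3K27me2 (SD 20.3, n = 150 SNRs of 158 with a window centre). In arm windows touching neither an SSR nor an SNR, median ranks were 32.3 for H3K27me3 and 33.7 for H3K27me2. The high H3K27me3 rank of SNRs follows from how they were chosen and is given as a description. No H3K27me2 profile took part in the choice of SNRs or SSRs, but the antibodies behind both lists were reported to cross-react with H3K27me2. How far H3K27me2 entered the lists in this way was not tested. H3K27me3 ranked above H3K27me2 in 138 of the 150 SNRs (92.0%), by over 50 points in 35, and H3K27me2 ranked above by over 50 points in 2. By windows the share was 95.6% of those centred in SNRs, against 48.4% of all arm windows. Since SNRs were chosen for high H3K27me3, this balance follows largely from the choice and is given as a description. Over all arm windows H3K27me3 ranked over 50 points above H3K27me2 in 4.92% and over 50 points below it in 4.02%. By their means, 122 SNRs (81.3%) were high in H3K27me3, 18 were high in H3K27me2 and 14 in both, and 7 were low in H3K27me2. Counted by windows centred in SNRs, 19.6% were high in H3K27me2 and 5.37% low, against 15.1% and 20.8% of all arm windows. Most SNRs are shorter than 1 window, so their values take in flanking sequence. In the 44 SNRs of at least 50 kb the median ranks were 95.9 for H3K27me3 (SD 2.89) and 59.8 for H3K27me2 (SD 15.2).

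SSRs showed the other balance. Their median rank was 60.8 for H3K27me3 (SD over SSRs 14.4) and 66.8 for H3K27me2 (SD 13.0, n = 193 SSRs), and H3K27me3 ranked above H3K27me2 in 66 of them (34.2%). By windows the share was 40.5% of those centred in SSRs, against 47.7% of all windows and 45.2% of arm windows touching neither list. Of the 8127 windows centred in SSRs, 6325 lie on the arms and chromosome 4, so these sets differ in their share of scaffold windows. The median difference between the marks was −4.99 rank points, which is smaller than its SD over SSRs (18.7). The means of long regions even out single windows: 6 SSRs averaged above rank 80 in H3K27me3 and 12 in H3K27me2. Of the windows centred in SSRs, scaffolds included, 30.1% were high in H3K27me3 and 38.5% in H3K27me2, against 19.8% and 20.3% of all windows. Among SSR-centred windows of the arms and chromosome 4, 11.9% were high in H3K27me3 only and 22.6% in H3K27me2 only. Of all arm windows 10.2% and 10.7% were so. The 99 SSRs that overlap a region reported as under-replicated had median ranks of 64.8 for H3K27me3 and 66.1 for H3K27me2 (median difference −2.08). The 94 SSRs that overlap none had 57.2 for H3K27me3 and 67.9 for H3K27me2 (median difference −8.62). Thus the H3K27me2 medians of these SSRs lay within 2 rank points of each other and their H3K27me3 medians lay further apart, with SDs over regions between 10.6 and 16.3. The 101 under-replicated regions as a whole had 66.0 for H3K27me3 and 62.6 for H3K27me2. Their lower copy number applies to ChIP and input alike, and whether the input removed it fully from either mark was not tested.

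**Figure D3:**
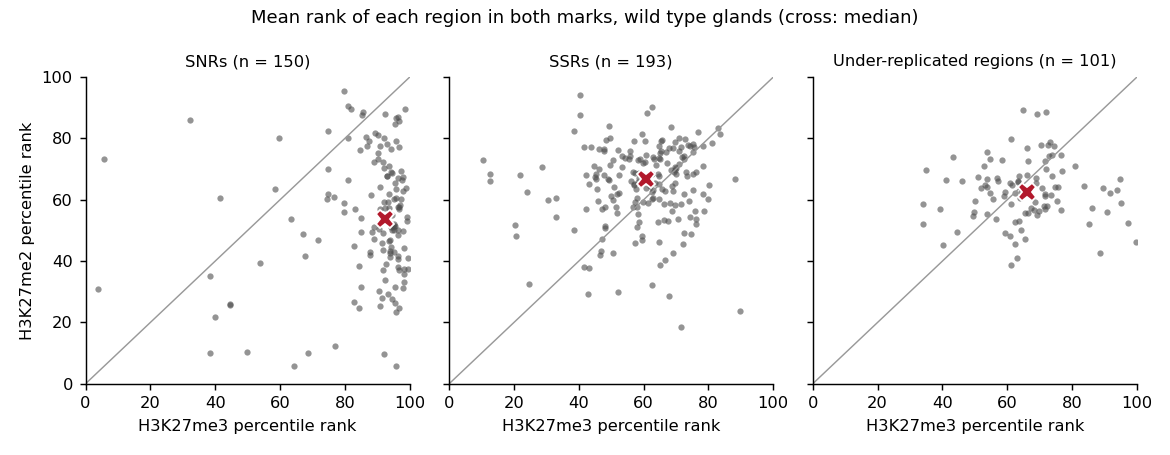
Mean H3K27me3 rank (horizontal axis) and mean H3K27me2 rank (vertical axis) of each SNR (left, 150 regions), SSR (middle, 193 regions) and under-replicated region (right, 101 regions) in wild type glands. The diagonal marks equal ranks and the cross marks the medians: 92.3 and 53.9 in SNRs, 60.8 and 66.8 in SSRs, and 66.0 and 62.6 in under-replicated regions.

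Along the chromosome both marks ranked higher at the centres of SNRs and SSRs than in their flanks, to unequal extents. At SNR centres on the arms and chromosome 4 the mean rank was 86.1 for H3K27me3 and 55.4 for H3K27me2, and 200 kb to the right of the centres it was 48.8 for H3K27me3 and 48.5 for H3K27me2. Around the 44 long SNRs the mean ranks at the centre were 97.0 for H3K27me3 and 65.0 for H3K27me2, against 44.8 and 44.5 at the same distance to the right. At SSR centres they were 62.4 for H3K27me3 and 67.2 for H3K27me2, and 47.7 and 51.5 at 200 kb. Runs of H3K27me3-high windows gave a further view that does not depend on the region lists. On the arms and chromosome 4 there were 122 such runs that extend over at least 11 consecutive windows. At their outermost high windows the median H3K27me2 rank was 52.6, 25 kb inside it was 59.6 and 25 kb outside it was 44.0, while 50 kb inside, a depth that only the longer runs reach, it was 68.9 (92 values against 244 at the edge). The H3K27me3 rank at these positions was chosen by the rule for runs.

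**Figure D4:**
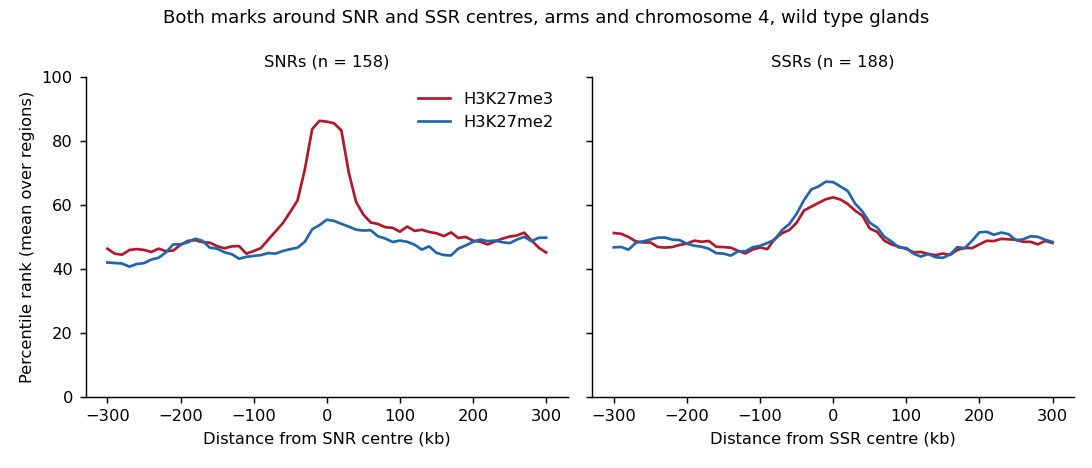
Mean percentile rank (vertical axis) of H3K27me3 (red) and H3K27me2 (blue) against the distance from region centres in kb (horizontal axis), for SNRs (left, 158 regions) and SSRs (right, 188 regions) on the arms and chromosome 4 of wild type glands. At the centre the ranks were 86.1 and 55.4 in SNRs and 62.4 and 67.2 in SSRs.

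Most windows high in both marks on the arms lay in SSRs, which cover more windows than SNRs. Of the 1032, 63.0% were centred in an SSR and 23.1% in an SNR, where 26.4% and 5.37% of all arm windows are so placed, and 49.6% were centred in an under-replicated region, against 21.6% of all arm windows. As a share of each kind of region, 18.5% of SNR-centred windows and 10.3% of SSR-centred arm windows were high in both, against 4.31% of all arm windows. SNRs were chosen for high H3K27me3, and 94.5% of SNR-centred windows were high in it. Their excess over all arm windows therefore follows largely from the choice. Their share high in both is near their share high in H3K27me2, 19.6%, against 15.1% of all arm windows. The 2245 windows low in both were almost never inside the listed regions, with 0.935% centred in an SSR and none in an SNR. Since both lists were chosen for H3K27me3 in wild type, this scarcity follows largely from the choice. The 256 arm windows with high H3K27me3 and low H3K27me2 were centred in SSRs in 37.1% of cases, in SNRs in 24.2% and in neither in 38.7%. Of all arm windows, 68.2% are centred in neither. A window centred in neither can still overlap a region. Only 22 of the 256 overlapped no SSR or SNR at all, where 13360 of the 23930 arm windows overlap none. The 128 arm windows with high H3K27me2 and low H3K27me3 were centred in SSRs in 35.2% of cases and in neither in 64.8%. The latter share is near the 68.2% of all arm windows, and the former stands against 26.4%. None was centred in an SNR, which follows largely from the choice of SNRs for high H3K27me3.

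The large arms differed more in H3K27me3 rank than in H3K27me2 rank. Median H3K27me2 ranks of the large arms were all between 47.0 and 47.9, whereas median H3K27me3 ranks were 53.2 on 2L, 48.5 on 3L, 47.7 on 3R, 41.4 on 2R and 40.6 on X. The median difference between the marks was 2.10 rank points on 2L, −4.11 on 2R and −3.85 on X, small beside its SD over windows of an arm (28.0 to 29.3). The share of windows high in H3K27me3 was 19.4% on 2L and 10.9% on X, while that of windows high in H3K27me2 was 15.02% on both. Chromosome 4 is known for its heterochromatin protein HP1a along the banded part. It had no window high in both marks among its 255, where 4.31% of all windows on the arms and chromosome 4 were. Of these 255 only 26 do not overlap, so the absence is not read as a trait of the chromosome. There 16.1% of windows were high in H3K27me3 only and 4.31% in H3K27me2 only.

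**Figure D5:**
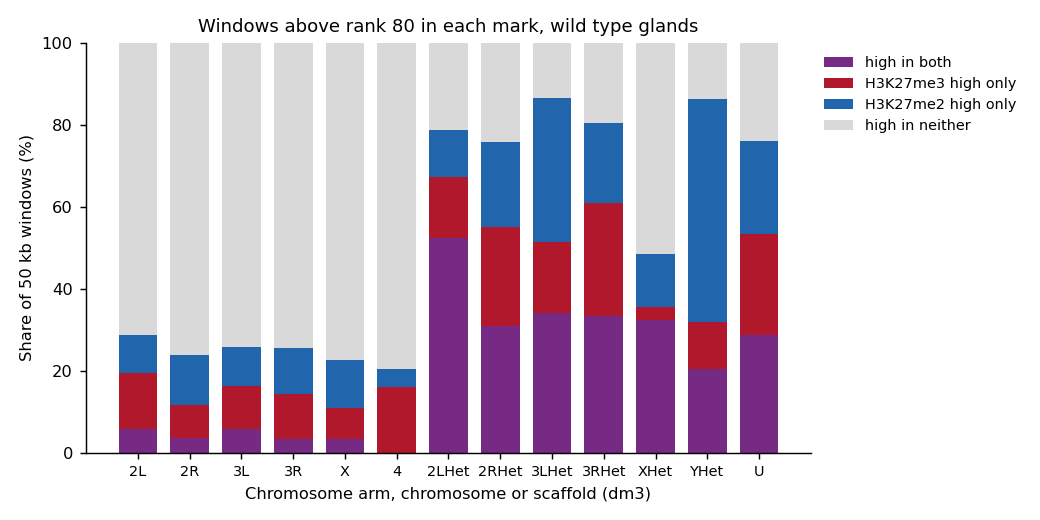
Share of 50 kb windows in percent (vertical axis) that were high in both marks, in H3K27me3 only, in H3K27me2 only or in neither, for each chromosome arm, chromosome 4 and scaffold of dm3 (horizontal axis) in wild type glands. Windows high in both made up 3.28% to 5.88% of the large arms, none of chromosome 4 and 20.5% to 52.5% of the scaffolds.

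Scaffolds as a whole ranked high in both marks, with medians of 82.1 for H3K27me3 and 84.0 for H3K27me2. On 2LHet the medians were 84.1 for H3K27me3 and 84.9 for H3K27me2. The scaffolds 2RHet, 3RHet and U had medians between 82.1 and 86.0 for H3K27me3 and between 80.4 and 82.9 for H3K27me2. On 3LHet the medians were 80.7 for H3K27me3 and 89.3 for H3K27me2. YHet had medians of 38.3 for H3K27me3 and 98.97 for H3K27me2, and XHet 27.3 and 75.8, so H3K27me3 was not high on either. They have 44 and 31 windows, of which 6 and 4 do not overlap. Their median differences between the marks, −24.7 on YHet and −2.52 on XHet over all windows, were −6.57 and −26 over non-overlapping ones, so neither can be ranked. Values on the scaffolds were more scattered than on the arms, with an SD over windows of 0.64 for log2 H3K27me3 (0.37 on arms) and 0.58 for log2 H3K27me2 (0.23 on arms). Single values recurred there. The value 0.05 stood in 206 of 3680 scaffold windows of the H3K27me2 profile (5.60%) and 0.365 in 114 of 3694 scaffold windows of the H3K27me3 profile (3.09%), whereas the most common value on the arms made up 1.62% and 1.66% of arm windows. The number of reads behind a scaffold window was not analysed here, and how far few or multiply mapped reads enter these values was not tested. Without the windows at the recurring values, a choice made after seeing the data, the share of scaffold windows high in both was 32%.

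The ends of the arms next to the pericentric heterochromatin also ranked high, but not on every arm. Within 1 Mb of this end the median ranks over the 5 arms were 67.6 for H3K27me3 and 73.8 for H3K27me2, with 19.7% of windows high in both. From 1 to 2 Mb they were 41.4 and 56.3, with 7.01% high in both. On 3L the first 1 Mb had medians of 88.8 for H3K27me3 and 85.8 for H3K27me2, with 48.7% of windows high in both, and on 2L 82.8 and 76.5 with 30.8%. On 2R H3K27me2 stood apart from H3K27me3, with medians of 55.4 for H3K27me3 and 86.3 for H3K27me2. On X they were 63.8 and 63.4. On 3R neither mark was high, at 30.8 for H3K27me3 and 37.8 for H3K27me2, with 2.05% of windows high in both.

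The longest runs of consecutive windows of a class were taken as its examples, with positions in dm3 coordinates. Genes in them are not named, since no annotation of this assembly was used. The longest run high in both marks extends over 205 kb of 2L, from 22490001 to 22695000, close to the pericentric end. Its 32 windows had mean log2 values of 0.355 for H3K27me3 (0.185 to 0.45) and 0.45 for H3K27me2 (0.25 to 0.65), and it touches an SSR. The next runs are 2 in pericentric 3L, of 185 kb from 23340001 to 23525000 with mean ranks of 88.3 for H3K27me3 and 90.9 for H3K27me2, and of 165 kb from 23855001 to 24020000 with 89.0 and 96.2. Both touch an SSR. The other 2 lie on X. One of 140 kb from 5395001 to 5535000 touches an SNR and no SSR, with mean log2 H3K27me3 of 1.46 and mean H3K27me2 rank of 89.1. The second, 135 kb from 11940001 to 12075000, touches an SSR and an under-replicated region.

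Windows with high H3K27me3 and low H3K27me2 formed short runs, 105 kb at the longest. This longest run lies on 3R from 18975001 to 19080000 and touches an SNR. Its 12 windows had mean log2 H3K27me3 of 0.68 (0.18 to 0.87, mean rank 92.9) and mean log2 H3K27me2 of −0.39 (−0.51 to −0.22, mean rank 7.70). The most extreme H3K27me3 among the 5 longest runs of this class was on 3R from 12490001 to 12585000, inside the longest SNR. There mean log2 H3K27me3 was 2.04 (mean rank 99.6) and mean log2 H3K27me2 was −0.31 (mean rank 11.6). The longest SNR as a whole had mean ranks of 99.3 for H3K27me3 and 54.2 for H3K27me2. Its window of highest H3K27me3 had H3K27me2 rank 82.9, so the H3K27me2 signal was uneven within this domain in the wild type profile. In SuUR mutants the H3K27me2 rank was 39.2 on average in this SNR and 30.8 in this window. The high value was thus not found again. Other long runs of the class lay in pericentric 3L from 24275001 to 24375000, in pericentric 2L from 21890001 to 21985000 and near the pericentric end of X from 21740001 to 21830000, with mean H3K27me2 ranks of 8.21, 7.00 and 1.91.

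Runs with high H3K27me2 and low H3K27me3 were shorter still, 80 kb at most. On 2R from 315001 to 395000 mean log2 H3K27me3 was −0.43 (mean rank 8.15) and mean log2 H3K27me2 was 0.48 (mean rank 95.1), in pericentric sequence of the arm where H3K27me2 ranked above H3K27me3. Another 80 kb run on 2R, from 3080001 to 3160000, had mean ranks of 7.85 for H3K27me3 and 83.9 for H3K27me2 and touches no listed region. The longest run low in both marks covers 190 kb of 2R from 3540001 to 3730000. Its 29 windows had mean log2 values of −0.51 for H3K27me3 (mean rank 4.87) and −0.45 for H3K27me2 (mean rank 6.81). The next 4 were 175 kb on 3L from 17490001 to 17665000, 170 kb on 3L from 9320001 to 9490000, 160 kb on X from 19450001 to 19610000, and 140 kb near the start of 3L from 145001 to 285000. Of these 5 runs, only that from 9320001 touches a listed region, an SSR.

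The single highest window of each large arm differed between the marks. In H3K27me3 it touched an SNR on all 5 large arms and on chromosome 4, with log2 values between 0.89 on chromosome 4 and 2.66 on X. H3K27me2 ranks in these 6 windows ran from 27.8 on X (4295001 to 4345000) and 41.5 on 2R (15125001 to 15175000) to 81.9 on 3L and 82.9 on 3R (12650001 to 12700000). The window highest in H3K27me2 touched no SNR on any of these chromosomes, and its log2 values lay between 0.45 on chromosome 4 and 1.41 on X. On 3R and on chromosome 4, 2 windows tied for the highest H3K27me2 value, and only the first was taken. The H3K27me2-highest window of X, from 21685001 to 21735000, also had H3K27me3 rank 99.1. It ends 5 kb before the start of the run with high H3K27me3 and low H3K27me2 on X named above. In the wild type profile H3K27me2 thus lay at opposite ends of its ranking in adjoining stretches that were both high in H3K27me3. In SuUR mutants the H3K27me2 ranks were 46.3 in this window and 66.8 in the run, so the contrast was not found again.

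The SuUR mutant profiles served to see how far each wild type class was found again. Quantile normalization had given the genotypes one distribution per antibody, so only positions in the ranking are compared, and the libraries differ in genotype as well as in preparation. On the arms and chromosome 4, 58.3% of the windows high only in H3K27me3 in wild type were in the same class in SuUR mutants, where 16.7% of arm windows are in that class. Of the windows low in both, 31.0% were again low in both (6.10% of arm windows in SuUR mutants). Of those high in H3K27me3 and low in H3K27me2, 18.8% were so again (2.20% of arm windows), and of those high in H3K27me2 and low in H3K27me3, 7.81% (1.19%). The last share is 10 of 128 windows, in a class with only 16 windows that do not overlap, so no recurrence is read from it. Of those high only in H3K27me2, 20.5% were again high only in H3K27me2, against 11.1% of arm windows. Of those high in both, 10.1% were again high in both, against 4.42% of arm windows. In these windows the median H3K27me3 rank was 76.7 in SuUR mutants, against 87.6 in wild type, and the median H3K27me2 rank was 71.7 in SuUR mutants, against 89.9 in wild type. Values chosen for being high in one profile can be lower in another through this choice alone, so no change of either mark is read from them.

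Between the marks, rho over the arms was 0.28 in SuUR mutants, against 0.46 in wild type, and over the scaffolds 0.16 in SuUR mutants, against 0.11 in wild type. Wild type H3K27me3 set against SuUR mutant H3K27me2 gave 0.37 over the arms. On scaffolds 262 windows (7.17%) were high in both marks in SuUR mutants, against 1120 (30.6%) in wild type. There the median H3K27me3 rank was 17.9 in SuUR mutants, against 82.1 in wild type, and the median H3K27me2 rank was 81.3 in SuUR mutants, against 84.0 in wild type. Genotype and library cannot be told apart with 1 profile each.

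Of the named runs, the 3 pericentric runs high in both marks on 2L and 3L had mean H3K27me3 ranks of 25.9, 26.6 and 40.1 in SuUR mutants, against 87.6, 88.3 and 89.0 in wild type. Their mean H3K27me2 ranks were 87.7, 79.99 and 84.2 in SuUR mutants, against 93.2, 90.9 and 96.2 in wild type. The run on X from 11940001, which touches an SSR, had 59.9 for H3K27me3 and 76.1 for H3K27me2 in SuUR mutants. In wild type both were 94.2. Over all 193 SSRs the median H3K27me3 rank was 63.1 in SuUR mutants, against 60.8 in wild type, so these runs do not stand for SSRs in general. Ranks are relative to all windows, scaffolds included, and arm windows as a whole had 53.2 in SuUR mutants, against 46.1 in wild type. Arm windows touching neither an SSR nor an SNR had 43.1, against 32.3. SSRs rose less in rank than these windows, so their higher median is not read as kept or gained H3K27me3. The SNR run on X from 5395001 to 5535000 had an H3K27me3 rank of 98.8 in SuUR mutants and 97.7 in wild type, with an H3K27me2 rank of 63.7 in SuUR mutants, against 89.1 in wild type. The 3R run inside the longest SNR had ranks of 99.4 for H3K27me3 and 8.84 for H3K27me2 in SuUR mutants, against 99.6 and 11.6 in wild type, so its low H3K27me2 within an H3K27me3 domain was found in both genotypes. It was the only one of the 5 named runs with high H3K27me3 and low H3K27me2 that stayed past both limits. The longest, on 3R from 18975001, had ranks of 97.6 for H3K27me3 and 38.5 for H3K27me2 in SuUR mutants, against 92.9 and 7.70 in wild type. The run on 3L from 24275001 had 66.7 and 78.4 in SuUR mutants, against 90.2 and 8.21 in wild type, and that on 2L from 21890001 had 62.0 and 42.0 in SuUR mutants, against 91.4 and 7.00 in wild type. The run on X from 21740001 to 21830000 had ranks of 16.4 for H3K27me3 and 66.8 for H3K27me2 in SuUR mutants, against 97.4 and 1.91 in wild type. Among the 5 longest runs with high H3K27me2 and low H3K27me3, only that on 2R from 315001 stayed past both limits. It had 9.69 for H3K27me3 and 82.3 for H3K27me2 in SuUR mutants. The 2R run from 3080001 had 61.9 and 46.7 there.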

How the data were processed

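Per the labels and the methods, the authors used MOSAIK to map read pairs to dm3 (BDGP R5), calculated RPM for ChIP and input, and deposited log2 ChIP/input values for 50 kb windows at 5 kb steps, quantile normalized between genotypes within each antibody. The ordered values of both genotypes were checked and are identical. Whether libraries were pooled is not stated. No read counts come with the deposited log2 values, so depth, counting error and intervals are unknown.

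Windows were joined on chromosome and centre. Ranks (ties averaged) were taken over all windows of a profile. High was above 80, low below 20, and a difference between marks was called past 50 points. Correlations used non-overlapping windows. A region's value was the mean over windows centred in it. The members, the SSR, SNR and under-replicated lists and the cut values were chosen with earlier results of these data known. Regions named are the 5 longest runs of each of 4 classes on the arms and chromosome 4 and the highest window of each mark per chromosome; the X window and run set side by side, and the longest SNR, were singled out after their values were seen. The class calls and correlations were tested on simulated data. Alternative cuts, ranks over arms alone, windows wholly inside regions and other windows were tried. Embryo libraries were not used. Python 3.11.15, numpy 2.4.6, pandas 2.3.3, scipy 1.17.1 and matplotlib 3.10.9 were used.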

Additional observations from a re-analysis of the deposited data

How the results depend on the processing

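Of 132 alternative values for 40 results, 99 stayed close to the value reported, 33 moved, and no difference of 5 rank points or more changed sign. Shares count as moved past a factor of 1.5, ranks past 5 points and rho past 0.1. With ranks above 90 and below 10 the shares were 2.44% high in both, 7.44% H3K27me3 only, 7.61% H3K27me2 only, 3.27% low in both, 0.729% H3K27me3 high with H3K27me2 low and 0.624% the reverse. Of the H3K27me3-high windows 24.7% were then H3K27me2-high, and 4.32% of the windows high in both were so again in SuUR mutants. Log2 values over 1 SD from the mean gave 2.67% high in both, 7.38% H3K27me2 only, 2.84% low in both, 0.859% H3K27me3 high with H3K27me2 low, 0.569% the reverse, and 25% of H3K27me3-high windows H3K27me2-high. Ranks above 75 and below 25 gave 2.24% H3K27me2 high with H3K27me3 low. Ranks over the arms alone gave 1.29% H3K27me3 high with H3K27me2 low, and 11.9% of windows of the reverse class were found again in SuUR mutants. Past 30 points, H3K27me3 ranked above H3K27me2 in 15.4% and below in 14.8% of windows, and past 70 points in 2.29% and 1.37%. These follow from where the limits lie. Mean differences between marks were 7.11 on 2LHet and 7.65 on 3RHet, where the medians were slightly below 0 (−0.071 and −1.16), and −10.1 on XHet and −30.6 on YHet, and medians over non-overlapping windows were −26.0 on XHet and −6.57 on YHet, which have few windows. Within SSRs rho was 0.203. Windows wholly inside SNRs gave medians of 97.8 for H3K27me3 and 65.3 for H3K27me2. The rank at SNR centres minus flanks was 43.7 for H3K27me3 as a median over regions, and 50.2 for H3K27me3 and 20.3 for H3K27me2 in SNRs of at least 50 kb. No paired analysis was possible because each mark has 1 profile per genotype. The read depth behind a window is unknown, so its precision cannot be given.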
